A study of Mus musculus with 6 samples.

Results

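The autophagy core genes are the genes whose products build the autophagosome, load it with cargo and join it to the lysosome. They were selected by a rule on gene symbols that used no measured value, though earlier results of these data were known. The rule took the *Atg* and *Ulk* genes, the subunits of the class III phosphatidylinositol 3-kinase complexes, the *Wipi* genes, and the LC3 and GABARAP genes. It also took a set of cargo receptors, *Lamp1*, *Lamp2* and *Tfeb*. This gave 42 of the 17577 genes listed in every library. The RNA came from germinal vesicle (GV) oocytes, the fully grown oocytes still arrested in meiotic prophase, of 12-week-old C57BL/6 J mice. Oocytes homozygous for a truncating frameshift allele of *Bnc1* (Bnc1tr/tr, 3 libraries) were compared with wild-type oocytes (WT, 3 libraries) to describe how the transcriptome differs. *Bnc1* encodes basonuclin 1, a zinc finger protein of germ cells and keratinocytes. The allele is carried in the germline, so the follicle around the oocyte and the rest of the body were mutant too. The methods of the study describe priming with PMSG (pregnant mare serum gonadotropin) before collection, comparisons between littermates, and cDNA amplified from single oocytes. The study calls its 3 replicates biological and analysed in duplicate. Whether they were separate animals, and how the duplicates entered the deposited values, was not stated, so the tests measure the spread between these libraries.

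In autophagy, the ULK1 kinase complex starts the process, a class III phosphatidylinositol 3-kinase makes the lipid PI3P on a membrane platform, and PI3P-binding WIPI proteins, ATG2 and ATG9 help this membrane to grow. A pair of ubiquitin-like conjugation reactions then attaches LC3 and GABARAP proteins, the ATG8 family, to the membrane lipid phosphatidylethanolamine. Receptors such as p62 link cargo to these proteins, and the closed autophagosome fuses with the lysosome. In the mouse, autophagy supports the survival of perinatal germ cells, and early embryos that lack *Atg5* from both oocyte and sperm fail to develop. Transcript levels do not measure autophagic flux, which depends on protein turnover and lysosome function.

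Values were FPKM (fragments per kilobase per mega mapped fragments), which can be compared between genes because they are scaled to length. *Bnc1* itself was listed at 9.04, 6.51 and 5.83 FPKM in Bnc1tr/tr replicates 1 to 3 and at 13.2, 12.5 and 16.2 FPKM in the WT replicates, so the groups did not overlap. Estimated depth was 13.2 to 17.1 M fragments (M, mega) in Bnc1tr/tr and 14.9 to 21.8 M in WT, at which 3 fragments on a transcript of 1 kb equal 0.138 to 0.228 FPKM. Genes above 0 numbered 15258 to 15736 in Bnc1tr/tr and 13896 to 14576 in WT. All 12 oocyte markers had a mean of at least 1 FPKM in both groups, with summed levels of 7965 to 8577 FPKM in Bnc1tr/tr and 6711 to 10818 FPKM in WT. Markers of other cells were far lower. The 12 listed granulosa markers summed to 50.9 to 67.2 FPKM in Bnc1tr/tr and 25.1 to 41.8 FPKM in WT, and the 7 listed theca and stroma markers to 5.91 to 9.76 and 1.54 to 2.09 FPKM. The 7 listed endothelial and epithelial markers summed to 14.3 to 38.4 and 10.4 to 14.3 FPKM. The 12 immune and blood markers summed to 64.6 to 147 FPKM in Bnc1tr/tr and 67.6 to 98.5 FPKM in WT. The largest part was *C1qb*, at 53.1 to 70.65 FPKM in Bnc1tr/tr and 64.8 to 95.3 FPKM in WT. In all WT libraries 8 of the 12 were listed at 0. Above every WT library were 11, 10 and 3 of these 12 in Bnc1tr/tr replicates 1 to 3. In Bnc1tr/tr replicate 3, 6 of the 12 were listed at 0, among them *Lyz2*, *Tyrobp* and *Cd74*, and *Laptm5*, *C1qa* and *Adgre1* were the 3 above every WT library, at 4.11, 0.61 and 0.13 FPKM. That library also held 5 of 12 granulosa, 4 of 7 theca and stroma and 4 of 7 endothelial and epithelial markers above every WT library. Examples were *Fshr* at 5.37, *Dcn* at 4.93 and *Krt8* at 6.17 FPKM, so some markers of other cells were raised in it too. Others were not. In that library 4 of the 12 granulosa markers were listed at 0, and *Pecam1* was at 3.16 FPKM, against 7.55 to 9.92 FPKM in WT. Over all tested genes, 32.7% had every Bnc1tr/tr library above every WT library, a stricter measure than 1 library. It also covers only genes averaging 1 FPKM or more, while some of these markers lay lower. The share for 1 library over all listed genes was not computed, so 32.7% is no baseline for these counts. The part of other cells in the results below was not tested, and each called member is therefore also given for Bnc1tr/tr replicate 3 alone against WT, where that lone library is assumed to vary like the others.

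Most autophagy core genes were expressed in these oocytes and did not pass the test between genotypes. Their levels spanned a wide range, from *Atg5*, at 236 ± 20.1 FPKM (SD, n = 3) in Bnc1tr/tr and 240 ± 33.1 FPKM (SD, n = 3) in WT, down to *Tfeb*, listed at 0.12 FPKM in Bnc1tr/tr replicate 2 and at 0 in the other 5 libraries. The filter for testing, an average of 1 FPKM or more across all 6 libraries, was passed by 36 members, and 6 lay below it. A gene was called when its Benjamini-Hochberg adjusted p in limma was under 0.05 and its absolute log2 fold change over 0.5, on the scale of log2(FPKM + 1). On that rule *Wipi1*, *Atg16l2*, *Sqstm1*, *Atg10* and *Uvrag* rose and *Lamp1* fell in Bnc1tr/tr oocytes.

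The 5 members called higher were 13.9% of the 36 tested, against 24.1% of all 10560 tested genes. The 1 member called lower was 2.78%, against 7.68%, and calls in either direction were 16.7% of members against 31.8% of all genes. The groups did not overlap, with Bnc1tr/tr higher, for 11 members, where 32.7% of all tested genes behaved so, and with Bnc1tr/tr lower for 7, where the share of all genes was 14.1%. The other 18 members overlapped, and 46.8% of all tested genes had groups that did not overlap in either direction. The median log2 fold change of the tested members was -0.01, and that of all tested genes was 0.15. Of the 36, 16 had a fold change above 0 and 20 below 0.

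The share of all genes that was called differed with their level. Among genes with a mean of 1 to under 5 FPKM, 31.3% of all genes and 1 of 11 members were called higher. At 5 to under 20 FPKM the share of all genes was 25.8% and 2 of 11 members were called higher. At 20 FPKM or more it was 15.6%, with 2 of 14 members called higher and 1, *Lamp1*, called lower, where 9.60% of all genes were lower. The median of all genes moved from 0.31 in the lowest class to -0.00 in the highest, while that of the members lay between -0.01 and -0.00 in all 3 classes.

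**Figure D1:**
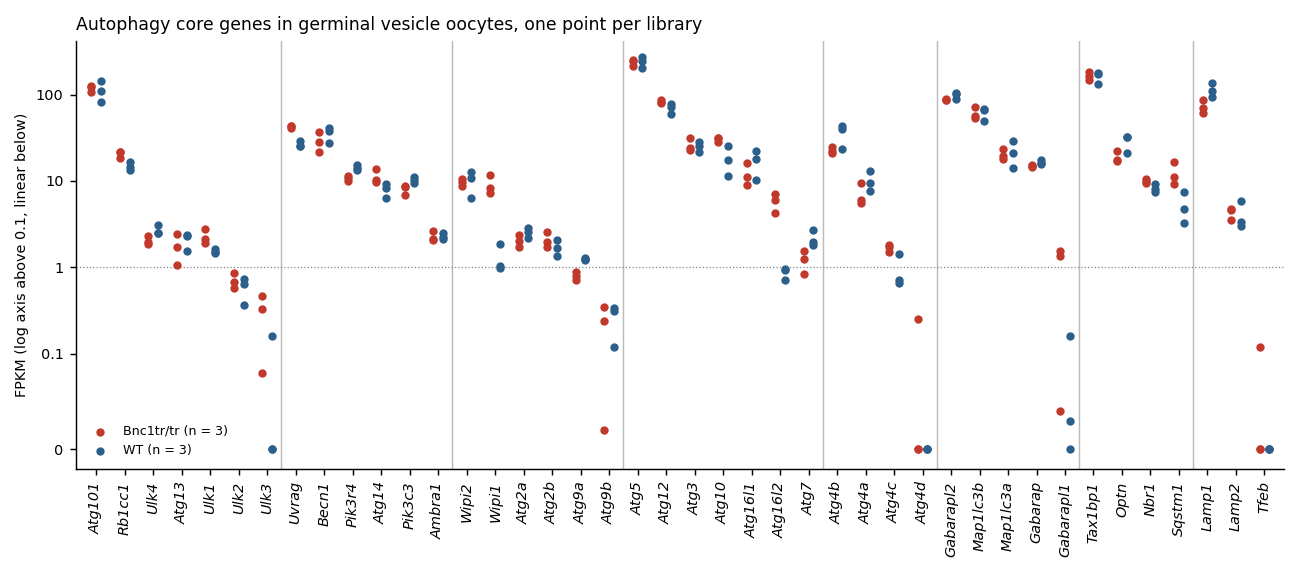
Levels of the 42 autophagy core genes, with 1 point per library and FPKM on an axis that is logarithmic above 0.1 and linear below, for the 3 Bnc1tr/tr and the 3 WT libraries. Genes are grouped by role in the pathway, with vertical lines between roles, and run from the highest to the lowest mean within each. *Atg5*, at 204 to 270 FPKM, had the highest mean of these genes. The dotted line marks 1 FPKM, below which the mean of 6 genes lay. *Wipi1* and *Atg16l2* show a wide gap between the groups.

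The promoters of *Lamp1* and *Wipi1* are shown because these are the member that fell and the member with the largest rise, and because the letters CACGTG, the core of the sites that TFEB and its relatives are known to bind, differ between them. Each run is the 250 bases before the RefSeq start of the gene on the GRCm38.p6 build, written in the direction of the gene, and capitals mark CACGTG, which reads the same on both strands.
Lamp1, plus strand, chr8:13158911-13159160: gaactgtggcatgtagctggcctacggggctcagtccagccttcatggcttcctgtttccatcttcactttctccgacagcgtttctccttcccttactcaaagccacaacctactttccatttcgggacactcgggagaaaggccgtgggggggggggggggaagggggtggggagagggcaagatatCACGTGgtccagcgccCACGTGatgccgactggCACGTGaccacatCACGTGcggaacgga
Wipi1, minus strand, chr11:109611390-109611639: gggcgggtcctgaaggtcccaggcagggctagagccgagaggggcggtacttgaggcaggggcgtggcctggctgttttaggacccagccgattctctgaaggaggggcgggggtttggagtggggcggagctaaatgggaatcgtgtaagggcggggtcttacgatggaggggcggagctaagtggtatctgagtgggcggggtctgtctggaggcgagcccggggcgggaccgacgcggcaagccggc
*Lamp1* held 4 copies, and the *Wipi1* window held none. Over windows from 250 bases before to 50 bases after the start, 4 or more copies were found in 5 of 8546 tested genes with a promoter in the RefSeq table (0.0585%). At least 1 copy was found in 5 of the 36 members with a promoter in the table (13.9%), namely *Lamp1*, *Atg7*, *Atg5*, *Atg14* and *Atg3*, against 8.09% of all genes in the table. These 36 include 6 members below the filter, and of the 30 that were tested 16.7% held a copy, against 11.4% of all tested genes. The longer palindrome TCACGTGA, which contains CACGTG, was found in 1 member, *Atg3* (2.78%). It was found in 1.12% of all genes in the table and in 2.16% of tested genes. TGACNNNGC, the antioxidant response element searched on both strands, was found in 4 members (11.1%). The shares were 14.0% of all genes in the table and 16.8% of tested genes. These matches are letters in a window and were not read as binding.

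Of the ULK kinases and the proteins that assemble with them, 5 of 7 members were tested. Limma called 0 of these, against 31.8% of all tested genes, and 1 had an unadjusted p under 0.05, against 42.9%. That gene was *Rb1cc1*, which encodes the scaffold protein FIP200 of the ULK1 complex. *Rb1cc1* was listed at 21.4, 18.6 and 21.8 FPKM in Bnc1tr/tr replicates 1 to 3 and at 16.4, 14.5 and 13.4 FPKM in the WT replicates. Every Bnc1tr/tr library was above every WT library, but the log2 fold change of 0.45 had a limma adjusted p of 0.065. *Atg101*, which encodes a stabilizing partner of ATG13, had the highest level of the group. It was listed at 123, 126 and 108 FPKM in Bnc1tr/tr and at 142, 109 and 81.0 FPKM in WT, and the widest values were both in the WT group, so the groups overlapped (log2 fold change 0.13, 95% interval -0.36 to 0.63). The kinase gene *Ulk1* lay between 1.46 and 2.75 FPKM in the 6 libraries and was higher in every Bnc1tr/tr library (log2 fold change 0.36, limma adjusted p = 0.14). *Ulk4*, a relative predicted to lack kinase activity, was lower in every Bnc1tr/tr library, between 1.86 and 3.08 FPKM (log2 fold change -0.28, limma adjusted p = 0.23). *Atg13*, which encodes the adaptor of the complex, had a log2 fold change of -0.19 (limma adjusted p = 0.56). *Ulk2* was between 0.37 and 0.86 FPKM and *Ulk3* between 0 and 0.47 FPKM, both below the filter and with groups that overlapped.

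Of the 6 genes of the class III phosphatidylinositol 3-kinase, 1 was called higher (16.7%, against 24.1% of all tested genes), namely *Uvrag*. Its product is the partner that directs the kinase to endosome and autophagosome maturation. *Uvrag* (Gene ID 78610, chr7:98886742-99141167, GRCm38.p6) was listed at 43.1, 40.9 and 43.1 FPKM in Bnc1tr/tr replicates 1 to 3 and at 25.6, 28.9 and 25.7 FPKM in the WT replicates. The 3 libraries of each group lay close together and every Bnc1tr/tr library was above every WT library. The log2 fold change was 0.65 (SE 0.15, 95% interval 0.30 to 0.99, limma adjusted p = 0.012), and 19.3% of the 31-base words of its transcripts also occur in other transcripts, mainly of the overlapping model *Gm45187*. With median-ratio scaling, which sets the median gene of the libraries equal, the value was 0.47, under the fold threshold, and with Bnc1tr/tr replicate 3 alone it was 0.67 (limma adjusted p = 0.13).

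*Atg14*, which encodes the subunit that places the kinase at the start of autophagosome formation, was also higher in every Bnc1tr/tr library. It was listed at 13.8, 10.1 and 9.64 FPKM against 8.30, 9.13 and 6.36 FPKM in WT, with a log2 fold change of 0.45 that did not pass (limma adjusted p = 0.12). The catalytic subunit gene *Pik3c3* and its regulatory subunit gene *Pik3r4* lay the other way. *Pik3c3* was listed at 8.68, 8.55 and 6.81 FPKM in Bnc1tr/tr and at 10.4, 11.0 and 9.35 FPKM in WT (log2 fold change -0.32, limma adjusted p = 0.18). *Pik3r4* was listed at 10.9, 10.04 and 11.4 FPKM in Bnc1tr/tr and at 15.4, 14.0 and 13.4 FPKM in WT (log2 fold change -0.38, limma adjusted p = 0.099). In both genes every Bnc1tr/tr library was below every WT library. *Becn1*, which encodes the scaffold beclin, had groups that overlapped and a log2 fold change of -0.30 (limma adjusted p = 0.37), and a large share of its transcript words also occurs in the overlapping gene *Cntd1*, so its level is uncertain. *Ambra1*, a beclin-binding regulator, was at 2.08 to 2.62 FPKM in all 6 libraries (log2 fold change -0.01, 95% interval -0.37 to 0.36).

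The largest difference of any tested member was in *Wipi1*. WIPI proteins are propeller-shaped effectors that bind PI3P at the forming autophagosome. *Wipi1* (Gene ID 52639, chr11:109573521-109611389) was listed at 11.6, 8.20 and 7.21 FPKM in Bnc1tr/tr replicates 1 to 3 and at 1.88, 1.02 and 0.98 FPKM in the WT replicates. The lowest Bnc1tr/tr library was well above the highest WT library, and the group means, 9.02 ± 2.33 and 1.29 ± 0.509 FPKM (SD, n = 3), stood in a ratio of 6.97. The log2 fold change was 2.12 (SE 0.23, 95% interval 1.61 to 2.64, limma adjusted p = 0.00017), and 0.3% of its transcript words are shared with other transcripts. The call held in 15 of 15 alternative settings, and with Bnc1tr/tr replicate 3 alone the value was 1.86. In the setting with a minimum mean of 5 FPKM, *Wipi1* was tested only through its level in Bnc1tr/tr.

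The paralog *Wipi2*, whose product recruits ATG16L1, had a log2 fold change near 0. It was listed at 9.64, 10.4 and 8.76 FPKM in Bnc1tr/tr and at 12.6, 10.9 and 6.36 FPKM in WT, so the Bnc1tr/tr libraries lay within the WT range (log2 fold change -0.00, 95% interval -0.54 to 0.53). Within each library the log2 ratio of *Wipi1* to *Wipi2* was 0.27, -0.34 and -0.28 in Bnc1tr/tr and -2.74, -3.42 and -2.70 in WT. The 2 transcripts were thus near an equal level in Bnc1tr/tr oocytes and *Wipi1* was the lower one in WT oocytes. This difference of 2.84 had an exact two-sided permutation p of 0.10, the smallest that 3 against 3 libraries allows, and 0.18 after Benjamini-Hochberg adjustment over 7 paralog ratios.

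The genes of lipid supply did not pass as deposited. *Atg9a*, which encodes a lipid scramblase on ATG9 vesicles, was listed at 0.89, 0.80 and 0.71 FPKM in Bnc1tr/tr and at 1.2, 1.25 and 1.27 FPKM in WT. The groups did not overlap, the log2 fold change was -0.32 (limma adjusted p = 0.14), and 32.4% of its transcript words are shared, mainly with *Gm29253*. With a pseudocount of 0.1, which weighs low levels more, *Atg9a* was the member called lower in place of *Lamp1* (log2 fold change -0.58, limma adjusted p = 0.036). The lipid transfer genes *Atg2a* and *Atg2b* had log2 fold changes of -0.22 and 0.19 with groups that overlapped. *Atg9b* was between 0.02 and 0.35 FPKM, below the filter.

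The conjugation genes held 2 of the members called higher, *Atg16l2* and *Atg10*, of 7 tested, where 24.1% of all tested genes were called higher. ATG16L1 forms the complex with ATG12 and ATG5 that places LC3 on membranes, and its relative ATG16L2 binds ATG5 but is not known to replace ATG16L1 in canonical autophagy. *Atg16l2* (Gene ID 73683, chr7:101286325-101302267) was listed at 5.97, 6.96 and 4.26 FPKM in Bnc1tr/tr replicates 1 to 3 and at 0.72, 0.96 and 0.92 FPKM in the WT replicates. All 3 Bnc1tr/tr libraries were far above the WT libraries, and the means of 5.73 ± 1.37 and 0.867 ± 0.129 FPKM (SD, n = 3) stood in a ratio of 6.61. The log2 fold change was 1.83 (SE 0.19, 95% interval 1.39 to 2.27, limma adjusted p = 0.00016). The WT mean was under 1 FPKM, so the gene passed the filter only through the Bnc1tr/tr libraries. With no filter on low values the limma adjusted p was 0.0017. The call held in 14 of 14 alternatives in which the gene was tested, and with Bnc1tr/tr replicate 3 alone the value was 1.50.

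*Atg16l1* did not pass the test. It was listed at 16.1, 9.00 and 11.0 FPKM in Bnc1tr/tr and at 22.3, 17.9 and 10.2 FPKM in WT, with groups that overlapped and a log2 fold change of -0.42 (limma adjusted p = 0.32). The log2 ratio of *Atg16l1* to *Atg16l2* within a library was 1.43, 0.37 and 1.37 in Bnc1tr/tr and 4.96, 4.22 and 3.47 in WT. *Atg16l1* remained the more abundant transcript in all 6 libraries, by a margin that was 3.16 smaller on the log2 scale in Bnc1tr/tr (exact two-sided permutation p = 0.10, adjusted p = 0.18).

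*Atg10* encodes the E2-like enzyme that joins ATG12 to ATG5. *Atg10* (Gene ID 66795, chr13:90935348-91224725) was listed at 31.5, 31.2 and 28.3 FPKM in Bnc1tr/tr replicates 1 to 3 and at 11.5, 17.2 and 25.3 FPKM in the WT replicates. The Bnc1tr/tr libraries lay close together, the WT libraries were spread widely, and the groups did not overlap by a small margin. The log2 fold change was 0.78 (SE 0.26, 95% interval 0.20 to 1.36, limma adjusted p = 0.044). The call was lost on leaving out any library but WT replicate 3: the limma adjusted p was 0.11, 0.11 and 0.084 without Bnc1tr/tr replicates 1 to 3 and 0.11 without WT replicate 1 or WT replicate 2, and the fold change without WT replicate 1 was 0.52. It was lost under all 3 other scalings too, with values of 0.60 to 0.65. A pseudocount of 0.1 (0.82, limma adjusted p = 0.073) and no filter on low values (0.78, 0.096) also lost it. The call held in 4 of 15 alternatives, and with Bnc1tr/tr replicate 3 alone the value was 0.69.

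*Atg5*, whose product is the acceptor of ATG12, was the most abundant member and ranked 557 among all listed genes. It was listed at 249.4, 213 and 247 FPKM in Bnc1tr/tr and at 270, 247 and 204 FPKM in WT, so the groups overlapped and the log2 fold change was -0.02 (95% interval -0.41 to 0.38). *Atg12* was listed at 81.9, 80.3 and 86.4 FPKM in Bnc1tr/tr and at 72.4, 78.2 and 59.8 FPKM in WT, with no overlap but a fold change of 0.25 that did not pass (limma adjusted p = 0.30). *Atg7*, which encodes the E1-like enzyme of both reactions, was listed at 1.26, 1.53 and 0.84 FPKM in Bnc1tr/tr and at 2.69, 1.79 and 1.94 FPKM in WT. It was lower in every Bnc1tr/tr library and missed the threshold (log2 fold change -0.51, limma adjusted p = 0.074). *Atg3*, which encodes the E2-like enzyme for LC3, had a log2 fold change of 0.05 (95% interval -0.37 to 0.48).

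The ATG4 proteases prime ATG8 proteins for attachment and later release them from the membrane. None of their 3 tested genes was called by limma, where 31.8% of all tested genes were. An unadjusted limma p under 0.05 was found for 2 of them, and for 42.9% of all tested genes. *Atg4b*, the most abundant, was listed at 22.2, 24.6 and 20.9 FPKM in Bnc1tr/tr and at 42.7, 40.04 and 23.7 FPKM in WT, where WT replicate 3 came close to the Bnc1tr/tr libraries and overlapped with the highest of them. Its log2 fold change was -0.59 (limma adjusted p = 0.087), and -0.85 without WT replicate 3 (limma adjusted p = 0.0058). *Atg4c* was listed at 1.83, 1.52 and 1.73 FPKM in Bnc1tr/tr and at 0.72, 1.44 and 0.65 FPKM in WT, higher in every Bnc1tr/tr library (log2 fold change 0.50, limma adjusted p = 0.081). The log2 ratio of *Atg4b* to *Atg4c* within a library was 3.60, 4.02 and 3.59 in Bnc1tr/tr and 5.89, 4.80 and 5.19 in WT, so every Bnc1tr/tr library was below every WT library (difference -1.55, exact two-sided permutation p = 0.10, adjusted p = 0.18). *Atg4a* had groups that overlapped (log2 fold change -0.46, limma adjusted p = 0.19), and its level is uncertain since 60.8% of its transcript words are shared, mainly with *Atg4a-ps*. *Atg4d* was listed at 0.25 FPKM in Bnc1tr/tr replicate 2 and at 0 in the other 5 libraries.

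**Figure D2:**
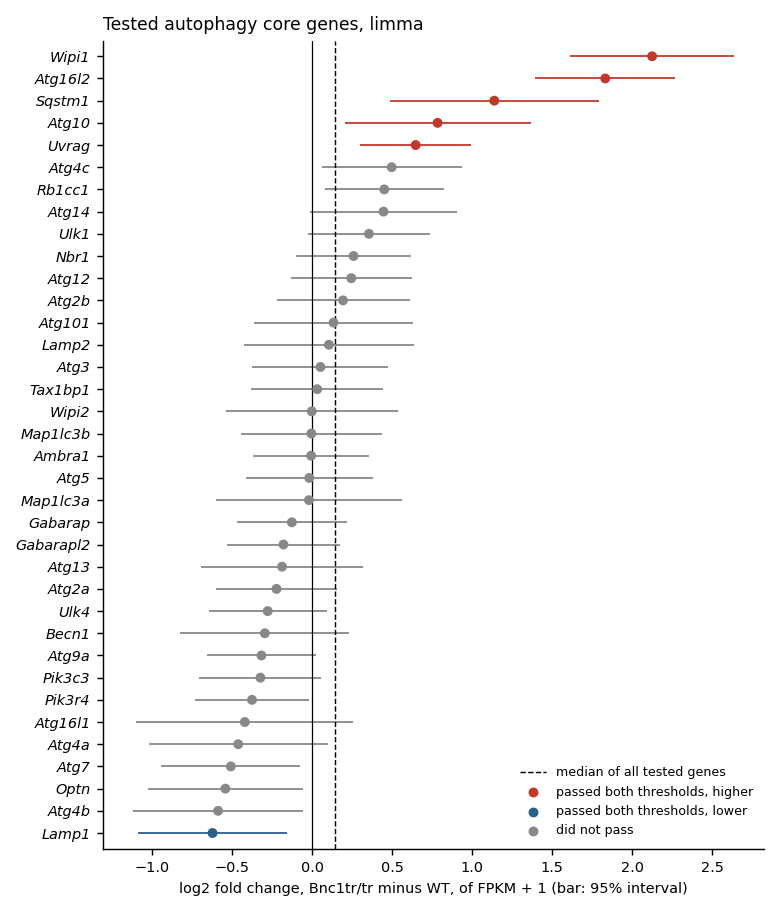
Log2 fold changes, Bnc1tr/tr minus WT, of FPKM + 1 for the 36 tested autophagy core genes, with bars for the 95% interval of limma and n = 3 per group. Colour marks the 5 genes called higher and the 1 called lower, and the dashed line is the median of all tested genes, 0.15. Most intervals cross 0, and *Wipi1* at 2.12 and *Atg16l2* at 1.83 stand clear of the rest.

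Of the ATG8 family, 0 of 4 tested genes were called by limma, against 31.8% of all tested genes. An unadjusted limma p under 0.05 was found for 0 of them, against 42.9%. *Gabarapl2* was the most abundant, listed at 85.7, 85.9 and 89.1 FPKM in Bnc1tr/tr replicates 1 to 3 and at 102, 105 and 88.9 FPKM in the WT replicates. WT replicate 3 lay within the Bnc1tr/tr range and the log2 fold change was -0.18 (95% interval -0.53 to 0.18), with 15.3% of its transcript words shared, mainly with processed copies. *Map1lc3b*, which encodes LC3B, was listed at 71.95, 56.8 and 54.0 FPKM in Bnc1tr/tr and at 65.9, 68.1 and 49.7 FPKM in WT, with groups that overlapped (log2 fold change -0.00, 95% interval -0.45 to 0.44). *Map1lc3a*, which encodes LC3A, was listed at 17.8, 19.5 and 23.7 FPKM in Bnc1tr/tr and at 29.1, 20.8 and 14.1 FPKM in WT, where the highest and the lowest value were both in WT (log2 fold change -0.02, 95% interval -0.60 to 0.56). *Gabarap* was listed at 14.5, 15.3 and 15.1 FPKM in Bnc1tr/tr and at 17.4, 15.6 and 16.2 FPKM in WT. These groups did not overlap, but the fold change was small (-0.13, 95% interval -0.47 to 0.22).

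*Gabarapl1* lay below the filter, at 1.36, 1.56 and 0.04 FPKM in Bnc1tr/tr and at 0, 0.16 and 0.03 FPKM in WT. It was above 1 FPKM in Bnc1tr/tr replicates 1 and 2 only, and 25.2% of its transcript words are shared, mainly with *1700101I11Rik*. The family summed to 184 ± 6.42 FPKM (SD, n = 3) in Bnc1tr/tr and 198 ± 25.2 FPKM (SD, n = 3) in WT (exact two-sided permutation p = 0.40). Within this sum *Gabarapl2* made up 47.3% ± 2.17 (SD, n = 3) in Bnc1tr/tr and 50.1% ± 2.49 (SD, n = 3) in WT, and *Map1lc3b* 33.0% ± 4.11 and 30.9% ± 1.54. *Map1lc3a* made up 11.1% ± 1.87 and 10.6% ± 2.68, *Gabarap* 8.13% ± 0.511 and 8.38% ± 1.09, and *Gabarapl1* 0.535% ± 0.451 and 0.0314% ± 0.0400. The groups overlapped in all 5 shares, and the exact two-sided permutation p ranged from 0.20 to 0.90.

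**Figure D3:**
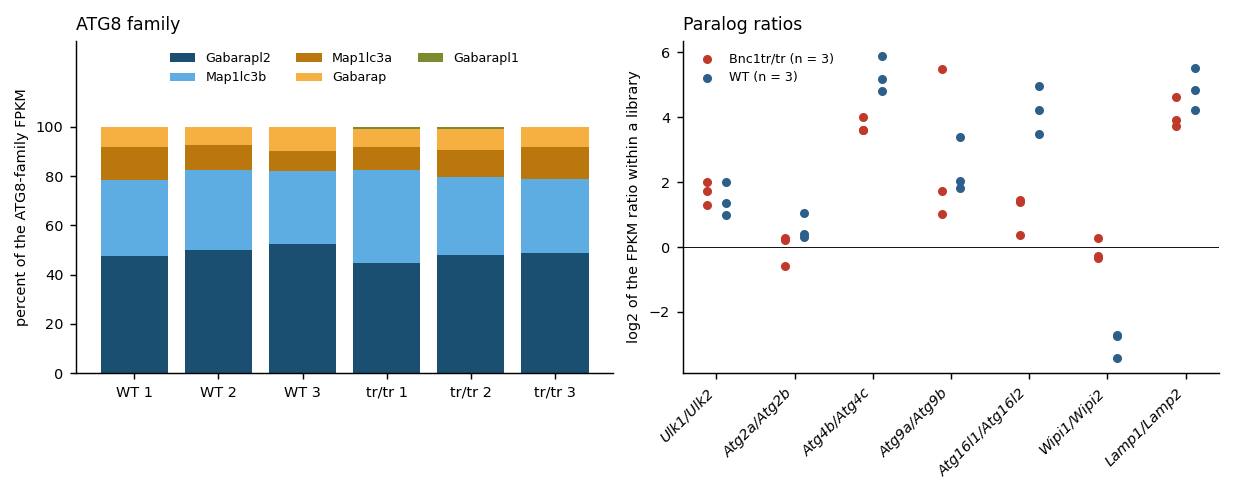
Within-library comparisons of related genes. Left, stacked bars give the percent of the summed ATG8-family FPKM for each of 5 genes in the 3 WT and the 3 Bnc1tr/tr libraries. *Gabarapl2* was at 44.8 to 52.7% in all of them. Right, points give the log2 FPKM ratio of 7 paralog pairs per library. The groups are apart for *Atg16l1*/*Atg16l2*, *Wipi1*/*Wipi2*, *Atg4b*/*Atg4c* and, narrowly, *Atg2a*/*Atg2b* (highest Bnc1tr/tr 0.29, lowest WT 0.32). Each of these ratios had an exact two-sided permutation p of 0.10 and an adjusted p of 0.18. Among single tested genes 46.8% had groups apart, and the share over other ratios was not computed.

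Of the 4 cargo receptors, 1 was called higher (25%, against 24.1% of all tested genes), namely *Sqstm1*. It encodes p62, which binds ubiquitinated cargo and LC3 and is itself degraded by autophagy. *Sqstm1* (Gene ID 18412, chr11:50200152-50210820) was listed at 16.7, 9.26 and 11.2 FPKM in Bnc1tr/tr replicates 1 to 3 and at 7.44, 4.76 and 3.26 FPKM in the WT replicates. Every Bnc1tr/tr library was above every WT library, with Bnc1tr/tr replicate 1 the highest. The log2 fold change was 1.14 (SE 0.29, 95% interval 0.49 to 1.79, limma adjusted p = 0.016), and 16.4% of its transcript words are shared, mainly with the overlapping gene *Mrnip*. Without Bnc1tr/tr replicate 1 the value was 0.92 (limma adjusted p = 0.058), and with no filter on low values it was 1.14 (limma adjusted p = 0.054). The call held in 12 of 15 alternatives, and with Bnc1tr/tr replicate 3 alone the value was 1.04.

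The other receptors did not pass. *Tax1bp1* was the most abundant receptor, listed at 146, 162 and 182 FPKM in Bnc1tr/tr and at 176, 172 and 133 FPKM in WT, and the groups overlapped (log2 fold change 0.03, 95% interval -0.38 to 0.44). *Optn*, which encodes the mitophagy receptor optineurin, was listed at 17.5, 22.02 and 17.2 FPKM in Bnc1tr/tr and at 32.2, 32.0 and 20.8 FPKM in WT. WT replicate 3 again lay within the Bnc1tr/tr range, so the groups overlapped, and the log2 fold change of -0.54 did not pass (limma adjusted p = 0.084). *Nbr1*, the p62 relative, was listed at 9.94, 9.46 and 10.6 FPKM in Bnc1tr/tr and at 7.51, 7.95 and 9.16 FPKM in WT, with no overlap and a log2 fold change of 0.26 (limma adjusted p = 0.25).

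*Lamp1* was the member that fell. It encodes a heavily glycosylated protein of the lysosome membrane. *Lamp1* (Gene ID 16783, chr8:13159161-13175338) was listed at 87.5, 70.7 and 61.1 FPKM in Bnc1tr/tr replicates 1 to 3 and at 110, 136 and 93.5 FPKM in the WT replicates. Every Bnc1tr/tr library was below every WT library, with Bnc1tr/tr replicate 1 and WT replicate 3 close together. The log2 fold change was -0.62 (SE 0.21, 95% interval -1.09 to -0.16, limma adjusted p = 0.047). The call was lost without Bnc1tr/tr replicate 2 (-0.61, limma adjusted p = 0.11), Bnc1tr/tr replicate 3 (-0.50, 0.15), WT replicate 1 (-0.63, 0.088) or WT replicate 2 (-0.48, 0.18), with a pseudocount of 0.1 (-0.63, 0.072) and with no filter on low values (-0.62, 0.072), and with Bnc1tr/tr replicate 3 alone it was -0.86 (limma adjusted p = 0.15). *Lamp2*, whose product takes part in fusion and in chaperone-mediated autophagy, was listed at 3.54, 4.74 and 4.65 FPKM in Bnc1tr/tr and at 5.92, 2.98 and 3.30 FPKM in WT, with groups that overlapped (log2 fold change 0.10, 95% interval -0.43 to 0.64).

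**Figure D4:**
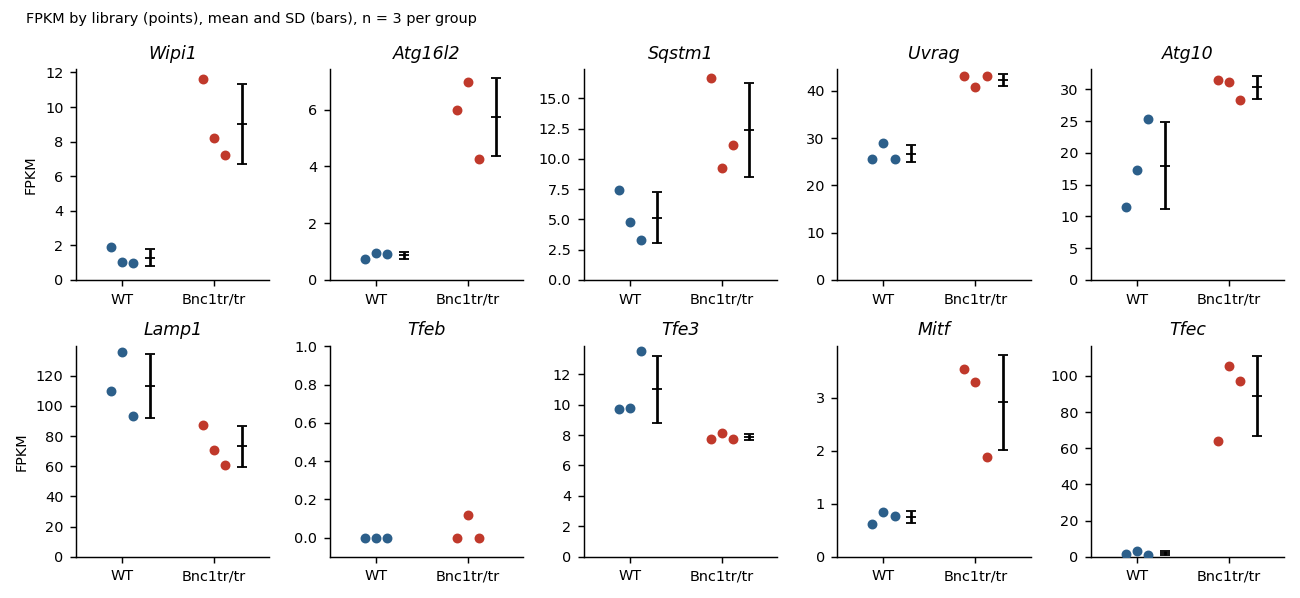
FPKM by library for the 6 called autophagy core genes, *Tfeb* and its relatives, each panel with its own linear axis, points for the 3 libraries of a group, and mean and SD as bars where shown. The groups are apart for the 6 called genes, by a wide gap for *Wipi1* and *Atg16l2* and by a narrow one for *Atg10*, at 25.3 FPKM in the highest WT and 28.3 FPKM in the lowest Bnc1tr/tr library.

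*Tfeb* encodes a transcription factor of the MiT/TFE family that switches on lysosome and autophagy genes, and it was at or near 0 in all libraries. Its 3 relatives were tested. *Tfec*, whose expression is best known from macrophages, was listed at 63.9, 106 and 97.2 FPKM in Bnc1tr/tr replicates 1 to 3 and at 1.42, 3.09 and 1.24 FPKM in the WT replicates. All Bnc1tr/tr libraries were far above all WT libraries, and the log2 fold change was 4.97 (SE 0.28, limma adjusted p = 4.5e-06). In Bnc1tr/tr replicate 3, with 97.2 FPKM of *Tfec*, 6 of the 12 immune and blood markers were listed at 0 and 3 were above every WT library, the highest of them *Laptm5* at 4.11 FPKM. The part of other cells in the *Tfec* level was not tested. *Mitf*, the melanocyte factor, was listed at 3.55, 3.30 and 1.88 FPKM in Bnc1tr/tr and at 0.62, 0.84 and 0.77 FPKM in WT, and rose by 1.14 on the log2 scale (limma adjusted p = 0.0032). With Bnc1tr/tr replicate 3 alone the value was 0.73 (limma adjusted p = 0.115). *Tfe3* was listed at 7.75, 8.12 and 7.76 FPKM in Bnc1tr/tr and at 9.69, 9.75 and 13.5 FPKM in WT. It was lower in every Bnc1tr/tr library and did not pass as deposited (log2 fold change -0.42, limma adjusted p = 0.11), but was called lower with median-ratio scaling (-0.59, limma adjusted p = 0.049) and with quantile normalization (-0.72, 0.022).

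The direction of small changes depended on how the libraries were scaled. As deposited, the median of all tested genes was 0.15. It was 0.02 with upper-quartile scaling, -0.02 with median-ratio scaling and -0.10 with quantile normalization, and the members' median was -0.14, -0.18 and -0.25. The members' median lay below that of all genes under every alternative run, by 0.077 to 0.24. The split of calls moved with it: 4 members were called higher and 5 lower with upper-quartile scaling (20.3% and 11.7% of all genes), 3 and 5 with median-ratio scaling (19.3% and 13.2%), and 4 and 11 with quantile normalization (15.5% and 17.8%). *Wipi1*, *Atg16l2* and *Sqstm1* were called higher and *Lamp1* lower under all 4 scalings. *Atg4b*, *Atg7*, *Optn* and *Pik3r4* were called lower under the 3 added scalings, and *Atg13*, *Atg2a*, *Atg4a*, *Atg9a*, *Pik3c3* and *Ulk4*, among the scalings, with quantile normalization.

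**Figure D5:**
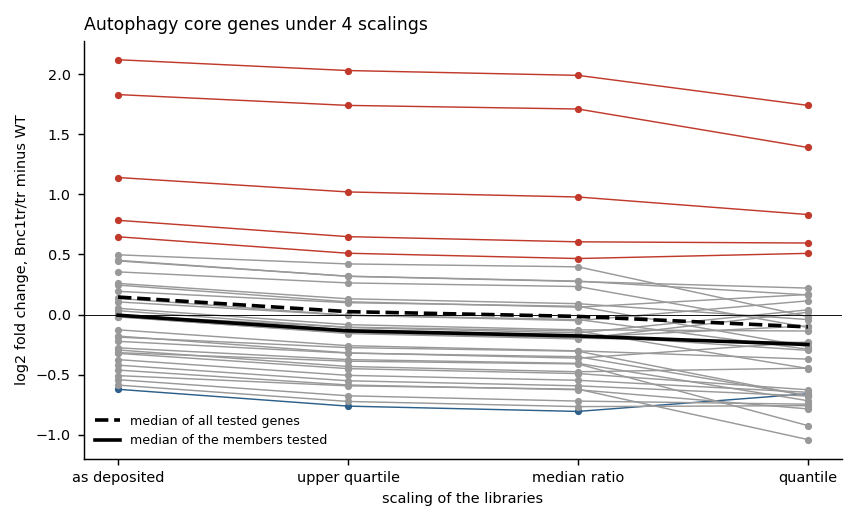
Log2 fold change, Bnc1tr/tr minus WT, of the tested autophagy core genes (1 line per gene) with the libraries as deposited and under 3 other scalings. The dashed black line is the median of all tested genes, which went from 0.15 to -0.10, and the solid black line is the members' median, which went from -0.01 to -0.25.

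Further genes of the pathway were described by lists. Of 31 further autophagosome genes, 26 were tested, 4 were called higher (15.4%, against 24.1% of all genes) and 1 lower (3.85%, against 7.68%), with a median log2 fold change of 0.03 beside 0.15 for all genes. *Trp53inp1*, which encodes an LC3-binding stress protein, was listed at 55.4, 37.0 and 42.8 FPKM in Bnc1tr/tr and at 15.0, 13.5 and 18.6 FPKM in WT, with no overlap, and rose by 1.45 on the log2 scale (limma adjusted p = 0.00080). *Wdr45b*, the WIPI relative WIPI3, was listed at 2.77, 1.31 and 1.77 FPKM in Bnc1tr/tr and at 0.60, 0.89 and 0.07 FPKM in WT, and its log2 fold change was 0.97 (limma adjusted p = 0.021), a call lost without Bnc1tr/tr replicate 1 (0.77, limma adjusted p = 0.075) or Bnc1tr/tr replicate 3 (0.997, 0.051), with quantile normalization (0.41, 0.20), with a pseudocount of 0.1 (0.056) and with no filter (0.058). *Rubcnl*, which encodes a UVRAG-binding maturation factor, was listed at 9.11, 6.95 and 6.19 FPKM in Bnc1tr/tr and at 14.2, 17.9 and 10.3 FPKM in WT. It was lower in every Bnc1tr/tr library (log2 fold change -0.83, limma adjusted p = 0.023), and the call held in 9 of 15 alternatives. Among others, it was lost without Bnc1tr/tr replicate 2 or 3 or WT replicate 1 or 2 (limma adjusted p = 0.053 to 0.093).

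The kinases upstream of ULK1 are mTORC1, which restrains it when nutrients are ample, and AMPK, which activates it when energy is low. Of 29 genes listed for them, 23 were tested, 2 were called higher (8.7%, against 24.1% of all genes) and 1 lower (4.35%, against 7.68%), with a median log2 fold change of -0.09 beside 0.15 for all genes. *Prkag2*, a regulatory AMPK subunit gene, was listed at 3.89, 5.70 and 4.03 FPKM in Bnc1tr/tr and at 1.19, 0.84 and 1.32 FPKM in WT (log2 fold change 1.38, limma adjusted p = 0.00072). *Prkaa1*, which encodes a catalytic AMPK subunit, was listed at 21.2, 29.5 and 28.9 FPKM in Bnc1tr/tr and at 47.9, 45.6 and 40.4 FPKM in WT. The first was higher and the second lower in every Bnc1tr/tr library, and *Prkaa1* had a log2 fold change of -0.74 (limma adjusted p = 0.015), lost without Bnc1tr/tr replicate 1 (-0.59, 0.051) or WT replicate 2 (-0.72, 0.058). *Flcn*, which encodes folliculin, a regulator of mTORC1 at the lysosome, was listed at 33.0, 17.6 and 24.2 FPKM in Bnc1tr/tr and at 14.4, 12.9 and 9.87 FPKM in WT. Its log2 fold change was 0.93 (limma adjusted p = 0.019), and the call held in 11 of 15 alternatives. Among others, it was lost without Bnc1tr/tr replicate 1 (0.71, 0.063) or Bnc1tr/tr replicate 3 (0.93, 0.054).

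Of 48 lysosome genes, 38 were tested, 10 were called higher (26.3%, against 24.1% of all genes) and 1 lower (2.63%, against 7.68%), with a median log2 fold change of 0.18 beside 0.15 for all genes. These shares were below or near the background. *Tpp1*, a lysosomal peptidase gene, was listed at 15.6, 20.8 and 17.2 FPKM in Bnc1tr/tr and at 4.69, 4.67 and 5.64 FPKM in WT, and rose by 1.65 on the log2 scale (limma adjusted p = 0.00017). *Tmem192*, which encodes a lysosomal membrane protein, was listed at 33.0, 32.5 and 24.9 FPKM in Bnc1tr/tr and at 10.5, 10.2 and 7.55 FPKM in WT, and rose by 1.58 (limma adjusted p = 0.00036). *Cd63*, a tetraspanin gene, was listed at 12.5, 2.26 and 2.48 FPKM in Bnc1tr/tr and at 0.89, 0.44 and 0.13 FPKM in WT, with Bnc1tr/tr replicate 1 far above the others (log2 fold change 1.88, limma adjusted p = 0.019). Without that library the value was 1.21 (limma adjusted p = 0.010), and the call held in 11 of 14 alternatives in which the gene was tested. Of the 12 immune and blood markers, 11, 10 and 3 were above every WT library in Bnc1tr/tr replicates 1 to 3. The part of other cells in the *Cd63* level was not tested. The gene called lower, chosen for naming after its values were seen, was *Ctsh*, the gene of cathepsin H. It was listed at 90.8, 94.2 and 87.2 FPKM in Bnc1tr/tr and at 156, 173 and 132 FPKM in WT, with no overlap (log2 fold change -0.75, limma adjusted p = 0.0093), and the call was lost without WT replicate 2 (-0.66, 0.052). With Bnc1tr/tr replicate 3 alone, 1 gene was called in each of these 3 lists, and of the members *Wipi1* and *Atg16l2* were called higher and 0 lower, where 7.29% of all genes were higher and 1.04% lower. At an unadjusted p under 0.05 the full comparison held 12 of the 36 members (33.3%), against 42.9% of all tested genes.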

How the data were processed

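The study made cDNA from single GV oocytes with a modified Smart-seq2 procedure. The authors deposited 1 gene table per library in FPKM with 2 decimals. The submitters' processing notes name HISAT2 2.0.4, Bowtie2 2.2.5, RSEM 1.2.12 and GRCm38.p6, without their roles. Read counts were not used here. FPKM is relative to all fragments, so abundant transcripts or a change in total RNA move all other values, and amplified reads without molecular identifiers do not count molecules.

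Symbols turned into dates (25) were replaced through the Gene ID. All 42 members were found in the RefSeq gene table, as were 17470 of the 17577 IDs. Groups came from the genotype labels. limma 3.58.1 in R 4.3.3 was fitted on log2(FPKM + 1) to all genes averaging 1 FPKM or more, which understates the change of low genes. Among the called genes described, *Atg16l2*, *Mitf*, *Wdr45b* and *Cd63* had WT means under 1 FPKM. They passed this filter only through the Bnc1tr/tr libraries. The thresholds on the adjusted p (0.05) and the log2 fold change (0.5 in either direction) are those the study names for oocytes. Where 2 values stand in parentheses after a left-out library, they are the log2 fold change and the limma adjusted p. Scripts were tested on simulated data. Depth, read from the step size of small FPKM values, entered no test, and floors cover counting error only. Shares and ratios used exact two-sided permutation tests in scipy 1.17.1. Shared transcript words of 31 bases came from the reference transcripts.

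Values per library were set to be given for called members, the 5 highest members and the ATG8 family, and those of other members were added after they were seen. From each list the 3 called genes with the largest change are named, and the relatives of *Tfeb*. Members and lists were chosen with earlier results of these data known. Alternatives were another pseudocount, other filters and fold thresholds, 3 scalings, the replicate number as a block, limma with trend and robust variances, and leaving out each library. The comparison of Bnc1tr/tr replicate 3 alone with WT was added after the data had been seen.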

Additional observations from a re-analysis of the deposited data

How the results depend on the processing

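FPKM with 3 libraries a group limits what could be called, and members near 0 rest on a few fragments. Over 49 named genes and 15 alternatives, 604 of 720 values kept their direction and side of the thresholds, 49 no longer passed, 25 newly passed and 42 changed sign. The cause of the changes was not tested. Counts of members called higher and lower (5 and 1 as reported) were 3 and 0 with no filter on low values, 4 and 5 with upper-quartile scaling, 3 and 5 with median-ratio scaling, 4 and 11 with quantile normalization, 3 and 0 at an absolute log2 fold change over 1, 2 and 0 with Bnc1tr/tr replicate 3 alone against WT, and 3 to 5 and 0 to 3 on leaving out 1 library. Calls in the lists of further autophagosome, mTORC1 and AMPK, and lysosome genes (5, 3 and 11) were 3, 2 and 7 both with no filter and at a minimum of 5 FPKM, 8, 3 and 11 with median-ratio scaling, 6, 5 and 9 with quantile normalization, 1, 1 and 6 at a fold change over 1, 1 in each with replicate 3 alone, and 2 to 7, 1 to 5 and 8 to 13 on leaving out 1 library. The members' median was -0.25 with quantile normalization and -0.13 to 0.06 on leaving out 1 library.

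Same-numbered libraries of the groups had correlations of 0.278, -0.034 and 0.124 between their deviations from the group means, not all above 0.1, so the numbers were not taken as pairs. Whether they mark a litter was not stated. With this replicate number as a block, 5 members were called higher and 2 lower, the second being *Atg4b*, and the lists had 5, 4 and 15 calls.

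With upper-quartile scaling *Atg101* was -0.0060, *Atg3* -0.084, *Lamp2* -0.0055 and *Tax1bp1* -0.11. With median-ratio scaling *Atg101* was -0.051, *Atg3* -0.13, *Lamp2* -0.042 and *Tax1bp1* -0.15. With quantile normalization *Atg2b* was -0.27, *Atg3* -0.14, *Atg4c* -0.017 (0.50 as reported), *Atg5* 0.019, *Lamp2* -0.29, *Nbr1* -0.042 and *Ulk1* -0.11 (0.36 as reported), and the difference in the *Map1lc3a* share was -0.37 percentage points. With a pseudocount of 0.1 *Wipi2* was 0.0030, and with Bnc1tr/tr replicate 3 alone *Atg101* was -0.00072, *Atg5* 0.046 and *Map1lc3a* 0.20. On leaving out 1 library, ranges that included both signs were -0.080 to 0.040 for *Ambra1*, -0.072 to 0.33 for *Atg101*, -0.37 to 0.00090 for *Atg13*, -0.081 to 0.14 for *Atg3*, -0.13 to 0.069 for *Atg5*, -0.047 to 0.35 for *Lamp2*, -0.28 to 0.23 for *Map1lc3a*, -0.15 to 0.078 for *Map1lc3b*, -0.096 to 0.11 for *Tax1bp1* and -0.27 to 0.18 for *Wipi2*. They were -0.71 to 0.34, -0.68 to 1.94 and -0.14 to 3.82 percentage points for the shares of *Gabarap*, *Map1lc3a* and *Map1lc3b*, and -1.03 to 1.2 for the log2 ratio of *Atg9a* to *Atg9b*.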
